A study of Mus musculus with 6 samples.

Results

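The genes described here encode the nuclear subunits of the mitochondrial respiratory chain and of ATP synthase. They were taken by symbol: every gene whose symbol begins with Nduf, Uqcr or Atp5, or with Cox and a digit from 4 to 8, and the genes Sdha, Sdhb, Sdhc and Sdhd. The rule found 89 of the 16862 genes in the table. Of these, 80 are subunits: 35 of complex I, 4 of complex II, 8 of complex III, 18 of complex IV and 15 of complex V. The remaining 9 share a name with the subunits but are not part of the complexes: the assembly factors Ndufaf1, Ndufaf2, Ndufaf3 and Ndufaf4, and Ndufa4l2, Cox7a2l, Cox4nb, Atp5s and Atp5sl. Ndufa4, named as a complex I subunit, was counted with complex IV, where it is now placed. RNA was sequenced from whole gonads of male C57BL/6 mouse embryos at E13.5, a stage counted in days after conception at which the testis has just formed. There were 3 wild-type libraries, numbered 1, 3 and 4, and 3 libraries of the L/H-Pgds knockout, numbered 5, 7 and 8, in which the lipocalin-type and hematopoietic prostaglandin D synthases (genes Ptgds and Hpgds) are both inactivated. The labels describe the gonads as those of 6 littermates and name no litter or batch, and the knockout is of the whole animal, so that germ cells and somatic cells lack the enzymes alike.

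Complex I, the largest of the chain, takes electrons from NADH and passes them to ubiquinone while it pumps protons across the inner mitochondrial membrane. Complex II oxidises succinate, complex III hands the electrons on to cytochrome c, and complex IV, cytochrome c oxidase, gives them to oxygen. Complex V, the ATP synthase, lets protons flow back through a ring in the membrane and uses that flow to make ATP. Most subunits are encoded in the nucleus and are short proteins with short messenger RNAs. A few core subunits are encoded in mitochondrial DNA, carry other symbols and are not covered by the rule. Several complex IV subunits exist as pairs of genes, a widely expressed form and one typical of muscle, testis or lung.

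The deposited values are upper-quartile normalised pseudo-counts, summing to 22881124 to 23734462 in wild type and 21657342 to 21846849 in knockout. The sums follow from the normalisation, and the sequencing depth is unknown. Ptgds held 6560, 8137 and 8712 in wild type and 15.2, 4.0 and 2.94 in knockout, a log2 change of -10.15 (SE 0.42, adjusted p = 3.41e-06). Hpgds was higher, by 0.90 on the log2 scale (SE 0.21, adjusted p = 0.00853), with 45.0, 47.5 and 55.0 in wild type against 87.8, 87.3 and 103.7 in knockout. A value for the whole gene does not show whether a deleted exon is missing, and the deleted part is not given in the sources used here. Gonad markers were present in all 6 libraries: the summed values of 5 Sertoli cell markers ranged from 94303 to 111192 in wild type and 58931 to 91814 in knockout, and those of 5 fetal Leydig cell markers from 65156 to 107076 and 48764 to 69394. Wild-type library 1 stood apart: its 10 muscle markers summed to 35140. They summed to 3013 and 4038 in wild-type libraries 3 and 4 and to 2217 to 2347 in knockout, so every knockout sum lay below every wild-type sum. None of the muscle markers was at 0 in any library. In wild-type library 1 the Leydig cell marker sum was also the highest, and the sum of 4 erythroid markers the lowest, at 35292 against 82532 to 138593. In knockout library 7, 7 germ cell markers summed to 28466, against 16036 to 22602 elsewhere. In whole gonads, fewer cells of a type and less RNA per cell cannot be told apart. The labels do not say whether libraries shared a pool or a day, so the p-values measure the spread between these libraries.

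Genes of all 5 complexes were lower in the knockout. Of 88 genes tested, 58 fell, 1 rose and 29 did not pass the test (limma, Benjamini-Hochberg adjusted p under 0.05 over all genes tested). Among all 15116 genes tested, 17.0% fell and 17.3% rose. The change was negative for 85 of the 88 genes, and their median log2 change was -0.50, or -0.47 relative to the median of all genes, which was -0.03. Libraries of the genotypes did not overlap for 59 genes, 58 lower and 1 higher in knockout, where 25.6% of all genes were fully apart and lower and 24.7% fully apart and higher. Summed over the 89 genes, the values were 522951, 467769 and 569296 in wild type and 372612, 399348 and 368446 in knockout, so that every knockout library lay below every wild-type library. The mean sum in wild type, 520005 ± 50828 (SD, n = 3), was 1.37 times that in knockout, 380136 ± 16768 (SD, n = 3). Scaling the libraries to equal totals raised the median change of all genes by 0.10, from -0.03 to 0.07, and moved the calls over all genes from 2571 lower and 2609 higher to 1690 and 3511. The median of the respiratory genes was then -0.40, again -0.47 relative to all genes, and 45 fell and 1 rose, against 11.2% and 23.2% of all genes. Quantile normalisation gave 50 lower and 1 higher, against 15.8% and 17.7% of all genes, and a fit with no mean-dependent prior gave 43 and 0, against 12.9% and 14.1%. Other pseudocounts, filters and scaling by the median of ratios gave 54 to 61 lower, against 14.7% to 20.7% of all genes. Leaving out 1 library changed the count by more than 1.5 times: without wild-type library 4, 38 genes fell and 0 rose, against 9.24% and 10.8% of all genes. Without wild-type library 1, 54 fell and 0 rose, with a background of 14.3% lower and 15.5% higher, and without knockout library 7, 70 fell and 0 rose, with 14.2% and 13.9%.

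**Figure D1:**
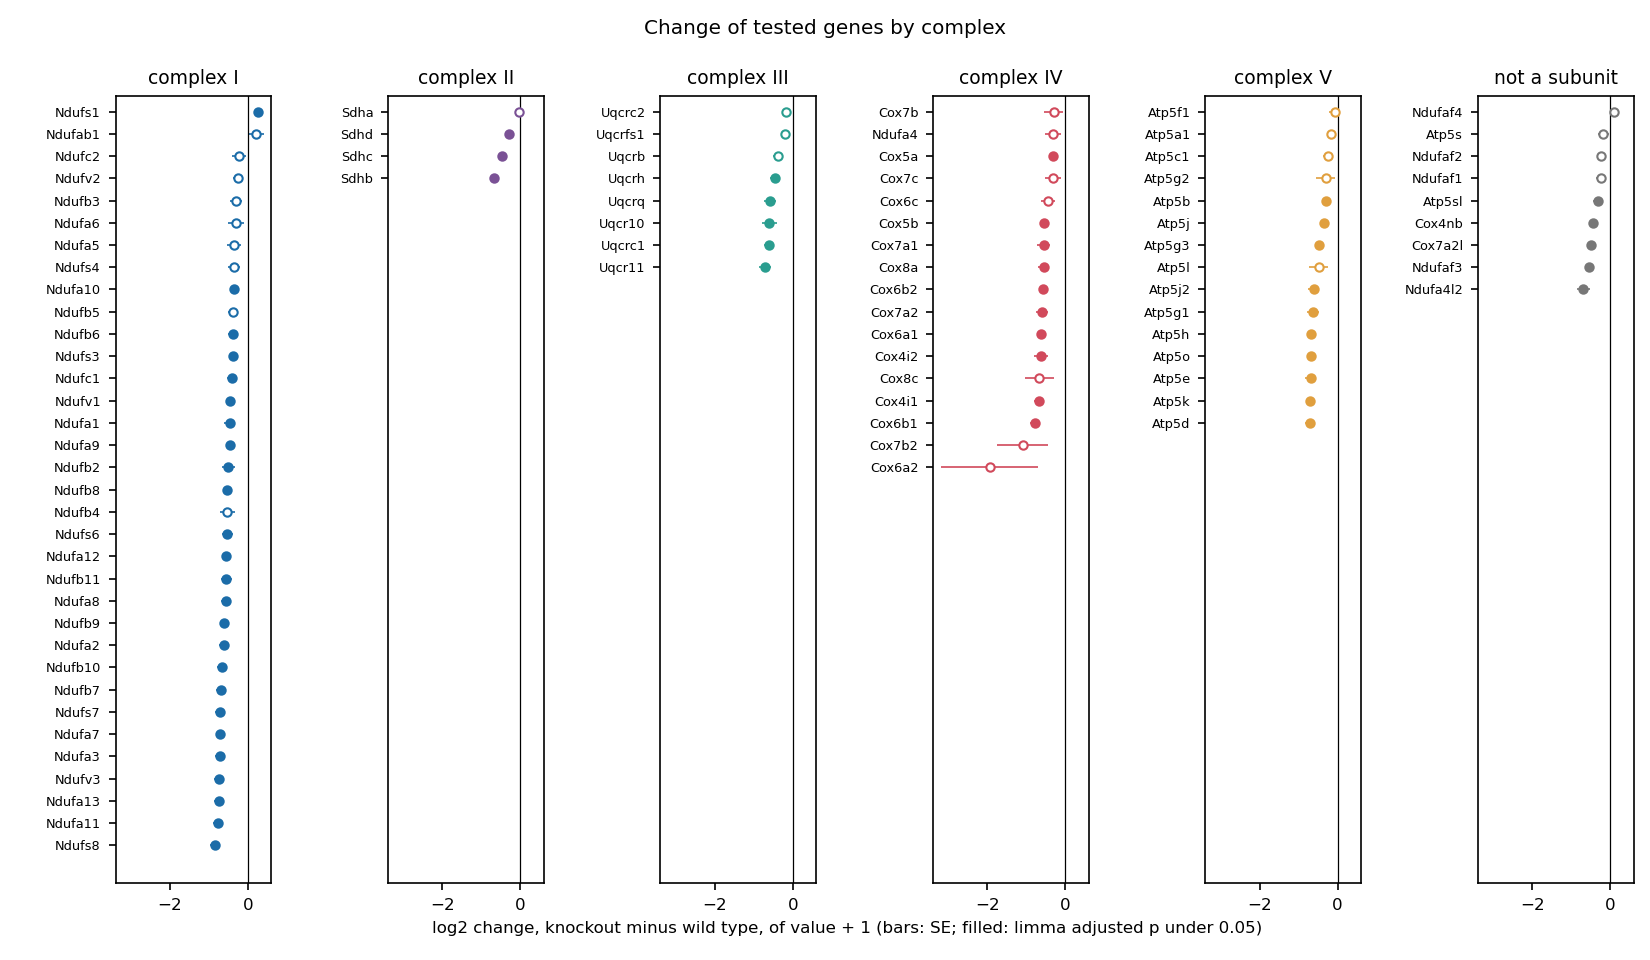
Each panel shows genes of 1 complex, or the symbol matches that are no subunit, with the log2 change of value + 1 (knockout minus wild type) on the horizontal axis; bars are standard errors and filled points have an adjusted p under 0.05 in limma. Nearly all points lie left of 0, Ndufs1 is the only filled point to the right of it, and Cox6a2 and Cox7b2 have the widest bars.

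Genes fell in every complex. Beside the counts by complex stand the 17.0% of all genes that fell, with a median log2 change of -0.03. Of all genes with transcripts under 1000 nt, 52.5% fell, with a median of -0.55. The median length of the longest transcript was 983 nt in complex I, 2065.5 in complex II, 955 in complex III, 645 in complex IV and 838 in complex V. In complex I, 25 of 35 genes fell and 1 rose, with a median log2 change of -0.50. In complex II, 3 of 4 fell (median -0.37), and in complex III, 5 of 8 (median -0.52). In complex IV, 10 of 17 genes tested fell (median -0.56), and in complex V, 10 of 15 (median -0.49). Among the 9 genes that are no subunits, 5 fell (median -0.32). Differences between the complexes were not tested. The ratio of summed values, wild type over knockout, was 1.41 for complex I, 1.25 for complex II, 1.39 for complex III, 1.46 for complex IV and 1.31 for complex V.

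Promoters are shown for 4 genes with deep falls, chosen after their values were seen because each carries a match to the motif of a factor known to drive respiratory genes. Nuclear respiratory factor 1 (NRF1) and GA-binding protein (GABP) are regulators of many nuclear genes of the chain. Each line gives the 120 bases before the annotated start, from RefSeq on GRCm38.p6, which is not the build of the deposited table, with the motif in capitals. Sdhb lies at chr4:140961151-140961270 on the plus strand, and its NRF1 match begins 54 bases before the start. Ndufa11 lies at chr17:56717642-56717761 on the plus strand, with overlapping NRF1 matches on both strands that begin 60 and 58 bases before the start. Cox6b1 lies at chr7:30626115-30626234 on the minus strand, with a GABP match in reverse that begins 28 bases before the start. Uqcr11 lies at chr10:80406822-80406941 on the minus strand, with a GABP match that begins 66 bases before the start.
Sdhb: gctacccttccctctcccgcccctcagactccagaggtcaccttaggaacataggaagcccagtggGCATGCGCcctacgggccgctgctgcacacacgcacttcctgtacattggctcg
Ndufa11: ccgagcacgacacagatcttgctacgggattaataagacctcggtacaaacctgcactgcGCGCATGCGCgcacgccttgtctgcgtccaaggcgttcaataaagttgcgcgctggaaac
Cox6b1: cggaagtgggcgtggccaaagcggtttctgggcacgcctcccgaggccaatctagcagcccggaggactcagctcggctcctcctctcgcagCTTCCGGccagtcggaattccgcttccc
Uqcr11: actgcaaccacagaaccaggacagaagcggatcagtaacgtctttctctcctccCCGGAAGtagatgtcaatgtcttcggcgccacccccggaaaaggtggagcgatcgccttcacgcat

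A promoter window from 250 bases before to 50 after the start was found for 73 of the 89 genes and for 13192 genes of the table. Motifs were searched on both strands, and matches were counted for each motif whether or not they overlapped another. NRF1 (GCATGCGC) had a match in 11 of the 73 windows (15.1%) and in 5.17% of those of the table's genes. For GABP (CCGGAAG) the shares were 17 of 73 (23.3%) and 16.7%. YY1 (AAGATGGC), a factor that binds near the start of many mitochondrial genes, had 11 of 73 (15.1%) and 4.42%, and Sp1 (GGGCGG), a factor of many promoters rich in GC, had 33 of 73 (45.2%) and 63.2%. Of the 17 genes with a GABP match, 15 fell in the knockout, with a median log2 change of -0.62, and of the 55 tested genes without one, 34 fell, with a median of -0.47. Counts for NRF1 were 7 of 11 with a match and 42 of 61 without. For YY1 they were 9 of 11 and 40 of 61, and for Sp1 21 of 33 and 28 of 39. These are counts of letters in a window, and whether any factor binds there was not tested. Of all genes tested 17.0% fell, and of those with transcripts under 1000 nt 52.5%. The 17 genes with a GABP match had longest transcripts of 371 to 1478 nt. The part of transcript length in the counts by motif was not tested.

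Complex I has 7 core subunits among these genes, which carry the flavin and the iron-sulphur clusters, and 5 of them fell while 1 rose. Ndufv1 (chromosome 19, 4007505 to 4012725 on mm9), which holds the flavin that accepts electrons from NADH, had values of 7857, 6332 and 7251 in wild type and 5537, 4852 and 5271 in knockout. All 3 knockout libraries lay below all wild-type libraries, with a log2 change of -0.45 (SE 0.10, adjusted p = 0.00782). Ndufs8 (chromosome 19, 3908870 to 3912717), an iron-sulphur subunit near the ubiquinone site, had the deepest fall of the complex, with 4864, 4036 and 5412 in wild type and 2866, 2282 and 2875 in knockout. Its log2 change was -0.83 (SE 0.13, adjusted p = 0.00195), and the genotypes did not overlap. Ndufs7, the neighbouring cluster subunit, held 5653, 4545 and 6118 in wild type and 3317, 2937 and 3673 in knockout. The change was -0.71 (SE 0.12, adjusted p = 0.00286) on the log2 scale, again with no overlap. Ndufs3, another core subunit, had a log2 change of -0.38 (adjusted p = 0.0139), and 0.0677 without wild-type library 4. Ndufv2, the partner of Ndufv1, did not pass the test at -0.26 (adjusted p = 0.12), with knockout library 7 at 5285, inside the wild-type range of 4974 to 6185.

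Ndufs1, the largest core subunit, was the gene that went the other way. Its values were 2904, 2914 and 2988 in wild type and 3518, 3784 and 3306 in knockout, and every knockout library was above every wild-type library. The log2 change was 0.27 (SE 0.08, adjusted p = 0.0308). The call was lost when any library other than knockout library 8 was left out, with adjusted p from 0.0592 to 0.0895 and a log2 change from 0.22 to 0.28. Its longest transcript, at 2661 nt, is the longest among the core subunits.

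Accessory subunits of complex I surround this core in the peripheral arm, which reaches into the matrix, and in the membrane arm, which pumps protons. In the peripheral arm 6 of 9 genes fell, with a median of -0.53. Ndufv3, a small subunit beside the flavin site, had 4317, 3799.6 and 4733 in wild type and 2574, 2235 and 2883 in knockout, a log2 change of -0.74 (SE 0.12, adjusted p = 0.00201). Ndufa7 had -0.71 (adjusted p = 0.0021) and Ndufa12 -0.55 (adjusted p = 0.00358). The other 3, Ndufs4, Ndufa5 and Ndufa6, had knockout library 7 inside or above the wild-type range: Ndufa6 held 5375, 4592 and 5505 in wild type and 3449, 6275 and 3355 in knockout. In the membrane arm 14 of 18 genes fell, with a median of -0.53. Ndufa11 (chromosome 17, 56857185 to 56863671), which sits where the membrane arm meets the rest of the chain's supercomplexes, had 5228, 4249 and 5439 in wild type and 3009, 2572 and 3110.0 in knockout. The genotypes were far apart, with a log2 change of -0.78 (SE 0.11, adjusted p = 0.00185). Ndufa13, also known as GRIM-19, held 6939, 5904 and 8101 in wild type and 4065, 4272 and 4044 in knockout, and its log2 change was -0.75 (SE 0.11, adjusted p = 0.00189). Ndufb8, often used as a marker of assembled complex I, had 5909, 5319.6 and 6843 in wild type and 4238, 4459 and 3781 in knockout and a log2 change of -0.53 (SE 0.11, adjusted p = 0.00536). Ndufb2 had 3005, 2599.5 and 3541 in wild type and 1800.1, 2836 and 1904 in knockout, with library 7 inside the wild-type range, and -0.50 (adjusted p = 0.0422). The calls of Ndufb2, Ndufb6, Ndufa1, Ndufc1 and Ndufb11 in this arm and of Ndufs6 in the other were each lost when wild-type library 4 or knockout library 5 was left out, with adjusted p from 0.0536 to 0.174. Those of Ndufb2, Ndufb6, Ndufa1 and Ndufc1 were also lost without knockout library 8 (0.0769 to 0.156), and that of Ndufb6 without wild-type library 1 (0.085). Ndufab1, the acyl carrier protein that serves both complex I and fatty acid synthesis, was not called, with 82, 83.6 and 104 in wild type and 86.8, 112 and 116 in knockout and a log2 change of 0.22 (adjusted p = 0.422).

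Complex II is built of 4 nuclear subunits, and 3 of them fell. Sdha (chromosome 13, 74459703 to 74487688), the flavoprotein that oxidises succinate, held 9062, 9089 and 8702 in wild type and 8815, 8319.6 and 9069 in knockout. The ranges overlapped throughout, and the log2 change was -0.04 (SE 0.08, adjusted p = 0.761), with values of 0.07 after scaling to equal totals and 0.15 after quantile normalisation, where its sign turned. Sdhb (chromosome 4, 140517186 to 140535107), the iron-sulphur subunit that takes the electrons from Sdha, held 6706, 5869.7 and 7206 in wild type and 4278, 3875 and 4106 in knockout. All knockout libraries were well below the lowest wild-type library, and the log2 change was -0.69 (SE 0.10, adjusted p = 0.00176). The anchors in the membrane lay between these: Sdhc had 5688, 5261 and 6026 in wild type and 4565, 3688 and 4137 in knockout, a log2 change of -0.46 (SE 0.10, adjusted p = 0.00693). Sdhd had 4724, 4484 and 5082 in wild type and 3881, 4235 and 3583 in knockout, a log2 change of -0.29 (SE 0.09, adjusted p = 0.0341). The call of Sdhd was lost without wild-type libraries 1 or 4 and without knockout libraries 5 or 8, with adjusted p from 0.0679 to 0.133. The difference between Sdha and Sdhb was not tested; their longest transcripts measure 2900 and 1142 nt.

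Complex III pairs large core proteins with the Rieske protein and small accessory subunits. Uqcrc1 (chromosome 9, 108838661 to 108851686), a core protein, held 12123, 10857 and 12749 in wild type and 8319.5, 6536 and 8677 in knockout, and the genotypes did not overlap. Its log2 change was -0.61 (SE 0.12, adjusted p = 0.00449). Uqcrc2, the other core protein, held 5493, 5893 and 6111 in wild type and 5108, 5576 and 4847 in knockout, with overlapping ranges and a log2 change of -0.17 (SE 0.09, adjusted p = 0.155). Uqcrfs1, the Rieske iron-sulphur protein that passes electrons on, held 3985, 3922 and 4329 in wild type and 3728, 3551 and 3348 in knockout. The knockout libraries were all lower, but the change of -0.20 (SE 0.08, adjusted p = 0.0858) did not pass the test. Of the 5 accessory subunits 4 fell, with a median over the 5 of -0.58. Uqcr11 (chromosome 10, 79865742 to 79869566), the smallest of them, held 3816, 3044 and 4325 in wild type and 1943, 2686 and 2204 in knockout, a log2 change of -0.71 (SE 0.15, adjusted p = 0.00541). Uqcrq, Uqcr10 and Uqcrh fell by 0.58, 0.60 and 0.46 on the log2 scale (adjusted p = 0.0191, 0.0305 and 0.0283), and leaving out wild-type library 4 or either of knockout libraries 5 and 8 ended each of these calls (0.0647 to 0.122). With any of these 3 libraries left out the count of the complex was 2 of 8. Uqcrb had -0.37 (adjusted p = 0.0501) and was called lower without wild-type library 3 (0.0353) or knockout library 7 (0.0146).

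Complex IV was described by its widely expressed subunits and by the forms typical of particular tissues. Of the 11 widely expressed subunits 7 fell, with a median log2 change of -0.54. Cox4i1 (chromosome 8, 123192190 to 123198109), the regulatory subunit that binds ATP, held 22216, 18447 and 23641 in wild type and 14328, 11603 and 14164 in knockout. The lowest wild-type library was well above the highest knockout library, and the log2 change was -0.68 (SE 0.12, adjusted p = 0.00342). Cox6b1 (chromosome 7, 31401993 to 31411170), which links the monomers of the enzyme's dimer, held 10959.5, 9726 and 13106 in wild type and 6819, 5609 and 7131 in knockout, the deepest fall among the called genes of the complex at -0.79 (SE 0.13, adjusted p = 0.00238). Cox5b, a zinc-binding subunit on the matrix side, had 2001, 1894 and 2276 in wild type and 1460.2, 1342 and 1439 in knockout and a log2 change of -0.54 (SE 0.09, adjusted p = 0.00299). Its partner Cox5a had 5579.8, 5361 and 6815 in wild type and 4702, 4776 and 4717 in knockout and a log2 change of -0.31 (SE 0.10, adjusted p = 0.0348). That call was lost without wild-type library 4 and without each knockout library, with adjusted p from 0.0555 to 0.138. Cox6a1 had -0.62 (adjusted p = 0.00335), Cox7a2 -0.59 (adjusted p = 0.0152) and Cox8a -0.55 (adjusted p = 0.0122). Leaving out wild-type library 4 ended the calls of Cox7a2 and Cox8a (0.0695 and 0.0561), as did leaving out knockout library 5 (0.0646 and 0.0576), and leaving out knockout library 8 ended that of Cox7a2 (0.0551). The other 4, Cox6c, Cox7b, Cox7c and Ndufa4, did not pass, and in each knockout library 7 was far above the other knockout libraries. Cox7b held 4600.3, 4032 and 4762 in wild type and 2973, 5903 and 2693 in knockout, so that library 7 was the highest of all 6. Ndufa4 held 8668, 7672 and 10307 in wild type and 6094, 10239 and 5725 in knockout, with a log2 change of -0.31 (SE 0.20, adjusted p = 0.245). Without library 7 all 4 were called lower, with log2 changes from -0.69 to -0.58. Of the whole complex, 5 genes fell with wild-type library 4 left out, and 6 with knockout library 5 left out.

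Of the 6 tissue forms of complex IV that were tested, 3 fell. Cox4i2, the form typical of lung that is known to respond to low oxygen, held 224, 172 and 216 in wild type and 143, 112 and 141 in knockout. Its log2 change was -0.63 (SE 0.18, adjusted p = 0.0205), a call that needed wild-type library 4 (adjusted p = 0.0781 without it) and knockout library 7 (0.065). Cox6b2, the testis form, held 1505, 1201 and 1682 in wild type and 965, 952 and 1034 in knockout, with no overlap and a log2 change of -0.56 (SE 0.12, adjusted p = 0.00719). Cox7a1, a form of heart and skeletal muscle, held 408, 442 and 589 in wild type and 335, 363 and 277 in knockout, a log2 change of -0.55 (SE 0.16, adjusted p = 0.0257). This call needed wild-type library 4 (0.108 without it) and knockout libraries 5 (0.0634) and 8 (0.0849). The other muscle forms followed wild-type library 1. Cox6a2 held 699, 6.79 and 24.6 in wild type and 11.2, 10.7 and 16.2 in knockout, a log2 change of -1.94 (SE 1.25, adjusted p = 0.251), and -0.06 without wild-type library 1. It was called lower without wild-type library 3 (-3.31, adjusted p = 0.0369). Cox8b, the gene below the filter, held 110.1, 0 and 3.76 in wild type and 1.02, 1.46 and 1.29 in knockout. Both were high in the library with the muscle marker sum of 35140, whereas Cox7a1 was highest in wild-type library 4, and the part of muscle in these values was not tested. Of the 10 muscle markers, 2 fell and 0 rose, where 17.0% of all genes fell and 17.3% rose. All 10 changes were negative, with a median log2 change of -2.17 (wild-type library 1 included), against -0.03 for all genes. Libraries of the genotypes did not overlap for 4 of the markers, all lower in knockout, where 25.6% of all genes were fully apart and lower. Cox7b2, a form of testis, was low throughout, with 43.1, 5.52 and 20.2 in wild type and 6.14, 12.9 and 5.38 in knockout, a log2 change of -1.09 (SE 0.65, adjusted p = 0.221) and -1.83 without wild-type library 3 (0.023). Cox8c, another testis form, held 20, 11.8 and 15.3 in wild type and 9.19, 8.67 and 10.1 in knockout, all knockout libraries lower, with a log2 change of -0.67 (SE 0.38, adjusted p = 0.192).

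Ratios between the paired forms of complex IV were formed within each library and compared by an exact permutation test, two-sided, in which 3 against 3 libraries cannot go below p = 0.1. The log2 ratio of Cox6b1 to Cox6b2 in wild type was 2.95 ± 0.08 (SD, n = 3), and that in knockout 2.72 ± 0.14 (SD, n = 3), with all knockout libraries below all wild-type libraries (exact p = 0.1, adjusted over 8 comparisons 0.8). For Cox4i1 and Cox4i2 the log2 ratio was 6.71 ± 0.07 and 6.66 ± 0.03 (SD, n = 3; exact p = 0.4, adjusted 0.8), and for Cox7a2 and Cox7a1 it was 4.02 ± 0.17 and 3.98 ± 0.18 (SD, n = 3; exact p = 0.8, adjusted 0.8). The mean log2 ratios of Cox6a1 to Cox6a2 and of Cox8a to Cox8b were 1.32 and 1.29 higher in knockout (exact p = 0.8 and 0.7, both 0.8 adjusted), with wild-type library 1 lowest in both, at 4.42 and 6.22 against 9.22 to 10.67 and 10.86 to 12.87 in the other libraries. With these numbers a change in the balance of forms was not detectable, which does not show that the balance was the same.

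Complex V consists of the F1 head, which makes ATP, the c ring, which turns in the membrane, and the stalks and membrane subunits that hold them together. In the head, 3 of 5 genes fell. Atp5d (chromosome 10, 79605060 to 79608563), the delta subunit of the central stalk, held 11875, 10835 and 14127 in wild type and 7402, 6689 and 8283 in knockout. Its log2 change was -0.72 (SE 0.12, adjusted p = 0.00251), with no overlap. Atp5e, the epsilon subunit beside it, had 13728, 10869 and 16226 in wild type and 7931, 7874 and 9082 in knockout and a log2 change of -0.70 (SE 0.14, adjusted p = 0.00461). Atp5b, the catalytic beta subunit, held 55830.3, 53060.5 and 57121 in wild type and 46082, 43498 and 44663 in knockout. The groups did not overlap, but the log2 change of -0.31 (SE 0.11, adjusted p = 0.0498) was at the threshold, was lost when any of the 6 libraries was left out (adjusted p from 0.075 to 0.138) and was 0.03, with the other sign, after quantile normalisation. Atp5a1, the alpha subunit, had a log2 change of -0.17 (adjusted p = 0.205), and Atp5c1, the gamma subunit that turns inside the head, -0.26 (adjusted p = 0.161). Atp5c1 was called lower without knockout library 7 (-0.41, adjusted p = 0.0128).

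The c ring subunit is encoded by 3 genes, Atp5g1, Atp5g2 and Atp5g3, whose mature proteins are the same. Atp5g1 held 588, 467 and 516 in wild type and 367, 279 and 365 in knockout, a log2 change of -0.64 (SE 0.15, adjusted p = 0.00857). Atp5g3 held 18646, 16674 and 20186 in wild type and 13079, 13548 and 13327 in knockout, a log2 change of -0.47 (SE 0.10, adjusted p = 0.00587). Atp5g2 was low, at 44.2, 41.5 and 45.2 in wild type and 36.7, 31.1 and 37.9 in knockout, and its change of -0.30 (SE 0.24, adjusted p = 0.351) did not pass. The share of Atp5g1 in the summed values of the 3 genes, not scaled for length, in wild type was 2.75% ± 0.28 (SD, n = 3), and that in knockout 2.47% ± 0.39 (SD, n = 3; exact permutation p = 0.5, adjusted 0.8). In the stalks and the membrane part 5 of 7 genes fell, with a median of -0.62. Atp5o, which links the head to the outer stalk and is known as the oligomycin sensitivity protein, held 11032, 10296 and 12731 in wild type and 7448, 6517 and 7276 in knockout. All knockout libraries were far below wild type, with a log2 change of -0.68 (SE 0.10, adjusted p = 0.00193). Atp5k, the e subunit that pairs synthases along cristae, held 5911, 5158 and 7135 in wild type and 3459, 4012 and 3656 in knockout, a log2 change of -0.70 (SE 0.12, adjusted p = 0.00265). Atp5h and Atp5j2 had -0.68 (adjusted p = 0.00228) and -0.62 (adjusted p = 0.0071). Atp5j had -0.36 (adjusted p = 0.0276), lost without wild-type libraries 1 or 4 or knockout libraries 5 or 8 (0.0561 to 0.0941). Atp5f1, the b subunit, did not pass at -0.08 (adjusted p = 0.701), and Atp5l at -0.49 (adjusted p = 0.148), called lower without knockout library 7 (-0.81, 0.00946).

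Among the 9 genes that are no subunits, 5 fell. Ndufaf3, an early assembly factor of complex I, held 635, 612 and 662 in wild type and 452, 425 and 421 in knockout, a log2 change of -0.55 (SE 0.10, adjusted p = 0.00354). Ndufaf1, Ndufaf2 and Ndufaf4 did not pass, with log2 changes of -0.25, -0.24 and 0.10. Ndufa4l2, a paralogue of Ndufa4 known to rise in low oxygen, held 323, 299 and 339 in wild type and 218, 159 and 223 in knockout, a log2 change of -0.69 (SE 0.16, adjusted p = 0.0094). Cox7a2l, a factor of supercomplex formation that C57BL/6 mice carry in a short form, had 5086, 4532 and 5450.1 in wild type and 3632, 3562 and 3426 in knockout and a log2 change of -0.50 (SE 0.09, adjusted p = 0.0032). Cox4nb, now called Emc8, belongs to a membrane protein complex of the endoplasmic reticulum and lies beside Cox4i1. It held 3109, 2877 and 3441 in wild type and 2367, 2252 and 2344 in knockout, with a log2 change of -0.43 (SE 0.09, adjusted p = 0.0054), so the fall was not limited to genes of the chain. Atp5sl had -0.32 (adjusted p = 0.0431), lost without wild-type libraries 3 or 4 or knockout libraries 7 or 8 (0.0638 to 0.165), and Atp5s had -0.17 (adjusted p = 0.335).

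Levels between genes were compared only per kilobase of transcript, over the 51 genes whose longest and median protein-coding transcripts were within 1.2 times of each other. The highest in both genotypes were the same 5 genes in different order. Atp5e, the highest in wild type, had 32322 per kb in wild type and 19705 in knockout, and Atp5b, the highest in knockout, had 28882 per kb in wild type and 23355 in knockout. Cox4i1 had 28019 per kb in wild type and 17470.5 in knockout, Cox6a1 25867 per kb in wild type and 16759 in knockout and Atp5g3 25591 per kb in wild type and 18420.4 in knockout. In wild type the lowest mean levels per kilobase were those of Cox8c (34.3 per kb in wild type and 20.3 in knockout), Cox7b2 (42.3 per kb in wild type and 15 in knockout) and Atp5g2 (57.9 per kb in wild type and 46.8 in knockout). In knockout the lowest were Cox8b (105 per kb in wild type and 3.5 in knockout), Cox7b2 and Cox6a2 (358 per kb in wild type and 18.7 in knockout), where the wild-type means of Cox8b and Cox6a2 rest on library 1. Neighbours among these first 5 differ by less than the 1.2 times allowed between their lengths, so their order is not settled.

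The size of the change moved with transcript length, as it did across all genes of the table. Length was that of the longest protein-coding transcript in GENCODE vM21, and the median over the genes tested here was 913 nt, against 3121 nt for all genes. Of the 49 genes under 1000 nt, 34 fell and 0 rose, with a median log2 change of -0.56. Of all 739 tested genes of that length, 52.5% fell and 0.135% rose, with a median of -0.55. Of the 39 genes of 1000 nt or more, 24 fell and 1 rose (median -0.38), against 15.6% and 18.7% of all genes of 1000 nt or more. These 2 groups are not alike in length, with medians of 1623 and 3250 nt. From 1000 to 1500 nt, 11 of 15 fell, against 49.0% of other genes. From 1500 to 2000 nt, 6 of 12 fell, against 34.4%, and from 2000 to 3000 nt, 3 of 6, against 18.4%. By length class, the median of these genes and that of other genes was -0.67 and -0.62 under 500 nt, -0.56 and -0.55 from 500 to 1000 nt, -0.46 and -0.43 from 1000 to 1500 nt, and -0.31 and -0.29 from 1500 to 2000 nt. From 2000 to 3000 nt it was -0.24 over 6 genes, and -0.13 for other genes. From 3000 to 4000 nt the order turned, with 0.10 over 3 genes, of which 1 fell, and 0.03 for other genes. Of the 3 genes of 4000 to 6000 nt, Ndufb2, Atp5g1 and Cox4nb, all fell, with a median of -0.50 where other genes had 0.19, but for these genes the longest transcript is at least 1.76 times as long as the median one. Across genes, the correlation of the log2 change with log2 length was r = 0.43 (rho = 0.43) over the 88 genes and 0.55 (0.60) over 14449 genes, and with GC content -0.40 (-0.57) and -0.47 (-0.52). Genes share the same 6 libraries and are not independent replicates, so these are descriptions.

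**Figure D2:**
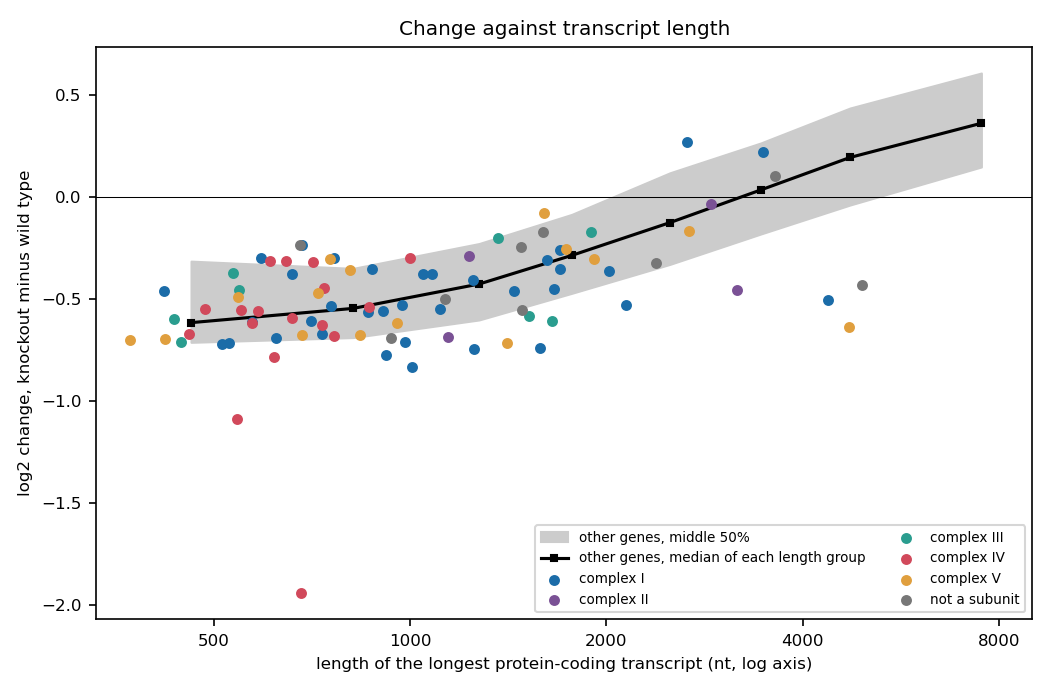
Points are the 88 genes tested, coloured by complex, with the length of the longest protein-coding transcript on a log axis and the log2 change (knockout minus wild type) on the vertical axis; the line joins the medians of all other genes in each length class and the band holds the middle 50% of them. The line falls from 0.36 for the longest genes to -0.62 for the shortest and most points under 2000 nt lie around it. Cox6a2 (-1.94) and Cox7b2 (-1.09), both under 1000 nt, lie far below it, and the 3 points far below it at 4000 nt or more are Ndufb2, Atp5g1 and Cox4nb.

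Removing the trend on length and GC content in each library took away most of the calls. With the longest transcript, whose trend held 42.0% of the variance of the log2 changes over all genes, 7 of the 88 genes fell and 0 rose, against 6.64% and 6.07% of 14449 genes, and the median was -0.07. The 7 were Ndufv2, Ndufv3, Ndufb2, Ndufb8, Sdhc, Atp5g1 and Cox4nb. In each the longest transcript was at least 1.76 times as long as the median one. With the median transcript length, an alternative chosen after seeing the data, the trend held 32.6% of the variance, 26 genes fell and 1 rose, against 9.16% and 10.8%, and the median was -0.26. Ndufv2, Ndufv3, Ndufb2 and Atp5g1 were called lower in both removals, and of these Ndufv2 was not called as deposited. Ndufs1 was higher with the median length, at a log2 change of 0.45 (adjusted p = 0.00346), and 0.17 (adjusted p = 0.0851) with the longest. For Ndufs1 these lengths are far apart, at 651 nt for the median and 2661 nt for the longest transcript, so its value after removal depends on that choice. Among the 50 tested genes whose own 2 lengths were within 1.2 times, 37 fell before removal, 0 with the longest and 15 with the median length, with medians of -0.56, -0.03 and -0.27. Of all 7705 genes of that kind, 17.4%, 4.37% and 12.4% fell, with medians of -0.06, 0.01 and -0.11. The number of calls after removal therefore depended on which transcript stood for the gene. With the longest transcript and without wild-type library 1, 7 fell and 0 rose, against 6.10% and 5.83% of all genes. The part of length and GC content in the difference between genotypes was not tested further.

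**Figure D3:**
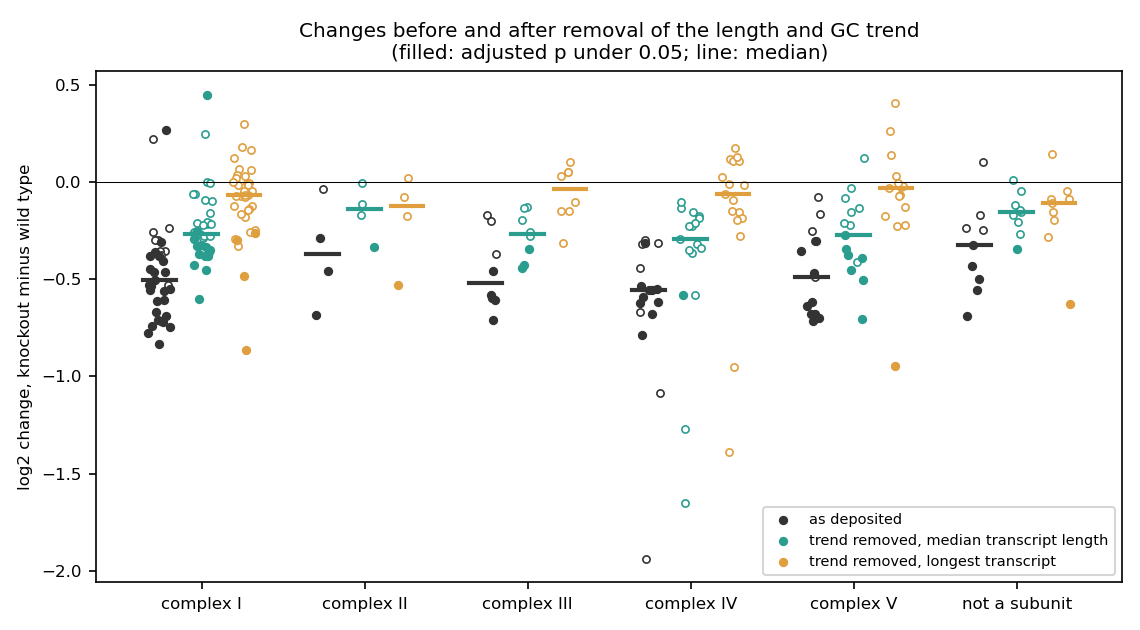
For each complex, points give the log2 change (knockout minus wild type) of each gene as deposited, after removal of the trend with the median transcript length and after removal with the longest transcript; filled points have an adjusted p under 0.05 and lines mark medians. The medians over all 88 genes move from -0.50 to -0.26 and to -0.07, and the number of filled points is 59, 27 and 7.

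Library by library, the genes moved together. Relative to each gene's mean, the median over the 88 genes was 0.26, 0.08 and 0.38 in wild-type libraries 1, 3 and 4 and -0.27, -0.14 and -0.30 in knockout libraries 5, 7 and 8 on the log2 scale. For all genes under 1000 nt the same medians were 0.31, 0.10 and 0.39 and -0.28, -0.22 and -0.30. Wild-type library 4 was the highest wild type for 76 of the 88 genes (86.4%), against 29.9% of all genes and 63.6% of those under 1000 nt. Library 3 was the lowest wild type for 79 (89.8%), against 34.6% and 77.3%. Medians of the wild-type libraries had the same order in all genes under 1000 nt. They also had it in the 39 respiratory genes of 1000 nt or more, at 0.21, 0.08 and 0.30 in libraries 1, 3 and 4. The part of transcript length in this order was not tested.

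**Figure D4:**
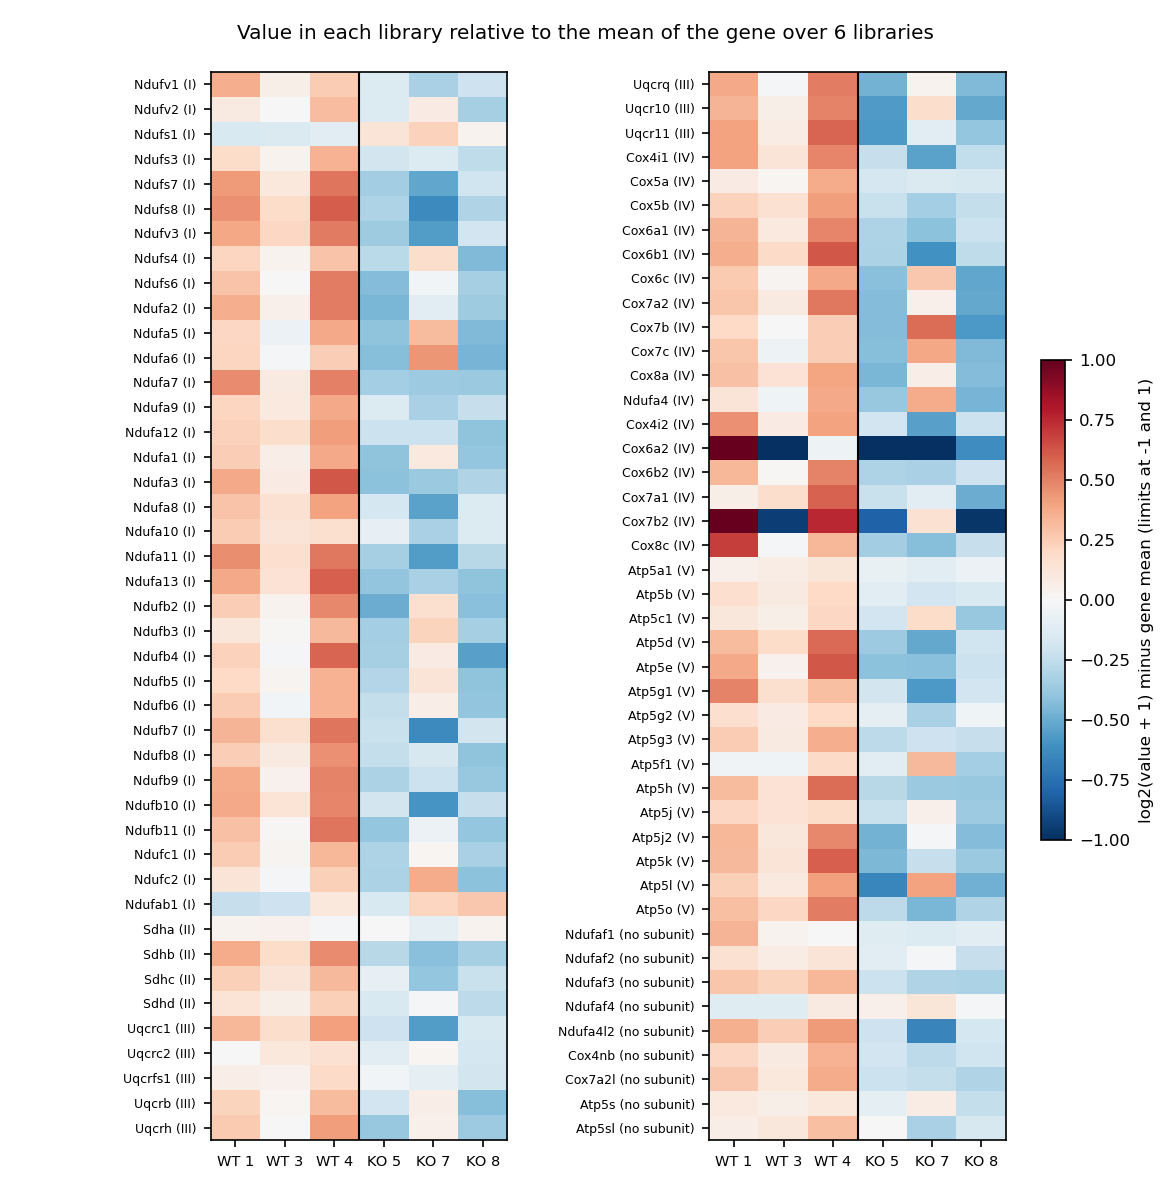
Rows are genes tested with their complex, columns are the 6 libraries, and colour gives log2(value + 1) minus the mean of the gene over the libraries, limited to -1 and 1. Wild-type columns are mostly red and knockout columns mostly blue, Ndufs1 has the opposite pattern, Cox6a2 is high in wild-type library 1, and knockout library 7 is red for Cox7b, Ndufa6, Cox7c, Ndufa4 and Atp5l.

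Knockout library 7 differed from the other knockout libraries in the genes of low GC content. It was the highest knockout library for 47 of 88 genes (53.4%), against 37.3% of all genes and 47.6% of those under 1000 nt. It lay above every wild-type library for 8 (9.09%), against 37.6% of all genes and 10.6% of those under 1000 nt: Cox7b, Ndufa6, Cox7c, Ndufc2, Atp5f1, Ndufab1, Ndufs1 and Ndufaf4. Among the respiratory genes under 50% GC it was the highest for 27 of 37, and among the others for 20 of 51. The shares of all genes on either side of 50% GC were not counted, so this split is not shown to be particular to these genes. The log2 difference of library 7 from the mean of libraries 5 and 8 ranged from -0.47 to 1.06, and its correlation with GC content was r = -0.54 (rho = -0.53) over the 88 genes and -0.42 (-0.51) over 14449 genes, given as a description across genes of the same libraries. Of the germ cell markers, 0 fell and 2 rose of 6 tested, against 17.0% and 17.3% of all genes, and none was at 0 in any library. Dazl held 16154 in library 7, against 6133 to 8502 in the other 5 libraries. Whether GC content or germ cell RNA has a part in the values of library 7 was not tested. Without library 7, when 14.2% of all genes fell, complex I had 33 of 35 genes lower, complex III 6 of 8, complex IV 12 of 17 and complex V 11 of 15.

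**Figure D5:**
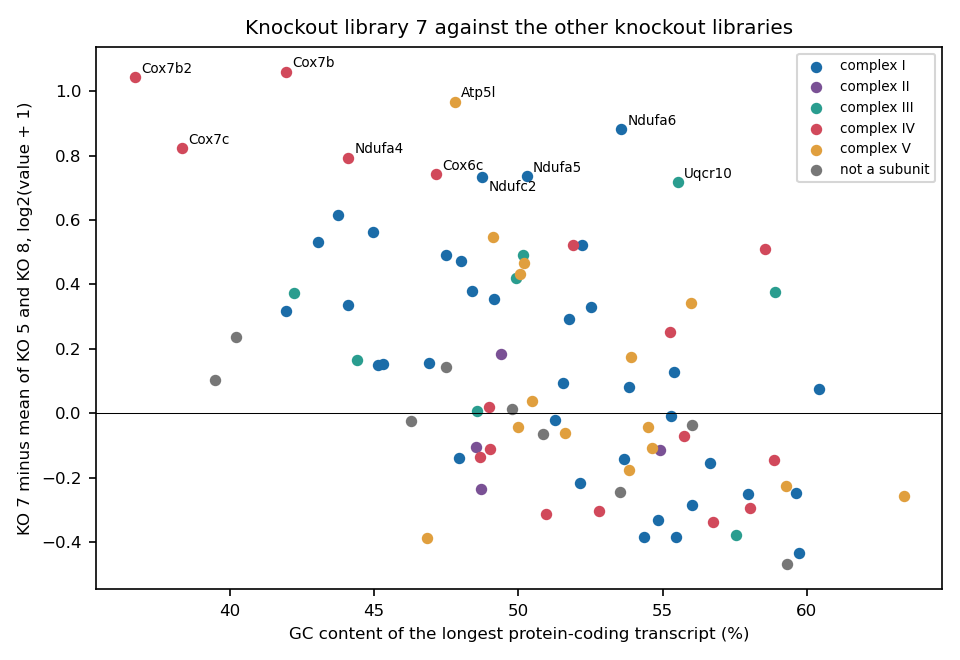
Each point is a gene, coloured by complex, with the GC content of its longest protein-coding transcript on the horizontal axis and the log2 difference of knockout library 7 from the mean of knockout libraries 5 and 8 on the vertical axis. Genes of low GC content lie mostly above 0 and those of high GC content mostly below, and Cox7b is highest at 1.06.

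Some of these genes have close copies in the genome. Pseudogene transcripts with at least 95% identity over at least 200 nt were found for 18 of the 89 genes. Of these 18, 9 were called lower, and of the 70 tested genes without such a copy, 49 were. The share lower was 17.0% over all genes and 52.5% over those under 1000 nt. Whether copies or transcript length have a part in these counts was not tested. Atp5l had 8 copies, and Atp5h and Uqcrb 3 each, and how the authors' counting treated reads that match a gene and its copy is not given in the sources used here, so the values of these genes are uncertain. The annotated span of Atp5f1 overlaps that of Wdr77, and the span of Atp5j overlaps that of Gabpa. Whether reads were counted by strand is not given, so reads of these neighbours cannot be told apart.

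Genes that build, feed or regulate the chain were listed by textbook role. Beside their counts stand the 17.0% of all genes that fell and the 17.3% that rose. Of 35 assembly factors tested, 12 fell and 1 rose. Cox19, a copper-handling factor of complex IV, had a log2 change of -0.77 (SE 0.13, adjusted p = 0.00242). Surf1, needed to build complex IV, had -0.62 (adjusted p = 0.00451), and Atpif1, the inhibitor of ATP synthase, -0.68 (adjusted p = 0.00187). Atpaf1, a factor of the F1 head, rose, with 49.4, 79.3 and 63.1 in wild type and 92.9, 103 and 113 in knockout and a log2 change of 0.70 (SE 0.22, adjusted p = 0.0355). After trend removal with the longest transcript 6 fell and 1 rose, against 6.64% and 6.07% of all genes, and without wild-type library 1 the counts were 10 and 0, against 14.3% and 15.5%. Of 8 electron carriers and entry points, 2 fell: Cyc1, the cytochrome of complex III that the symbol rule does not take, with 7753, 7202 and 8168 in wild type and 5457, 5942 and 5259 in knockout and a log2 change of -0.47 (SE 0.09, adjusted p = 0.00375), and Etfb, a flavoprotein of fatty acid oxidation, with -0.63 (adjusted p = 0.00245). Cycs, cytochrome c itself, had -0.42 (adjusted p = 0.108).

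Of 18 regulators of respiratory and mitochondrial genes, 1 fell and 3 rose, a share close to the 17.3% of all genes that rose. Ppargc1a, the coactivator PGC-1alpha, held 114, 134 and 108 in wild type and 196, 209.6 and 197 in knockout, with no overlap and a log2 change of 0.76 (SE 0.16, adjusted p = 0.00581). Gabpa, the DNA-binding subunit of GABP, held 1209, 1462 and 1342 in wild type and 2132, 2177 and 1879 in knockout, a log2 change of 0.63 (SE 0.10, adjusted p = 0.00228). Gabpb2 had 0.46 (adjusted p = 0.00302). Esrra, a nuclear receptor that works with PGC-1alpha, was lower at -0.41 (adjusted p = 0.0375), and Nrf1 had -0.06 (adjusted p = 0.603). After trend removal with the longest transcript 0 fell and 0 rose, against 6.64% and 6.07% of all genes. The list's median transcript length is 3954 nt. Without wild-type library 1 the counts were 0 and 3, against 14.3% and 15.5% of all genes. Of 13 genes of the citric acid cycle, 4 fell, Idh3g (-0.54), Mdh2 (-0.37), Idh3b (-0.31) and Fh1 (-0.28), and 0 rose. When wild-type library 1 was left out 2 were lower, against 14.3% of all genes. Cs, citrate synthase, often used as a measure of mitochondrial content, had -0.12 (adjusted p = 0.275). Of 16 genes of mitochondrial import and cristae, 5 fell and 1 rose, the fusion gene Opa1 at 0.38 (adjusted p = 0.0101). Vdac1, the main channel of the outer membrane, had -0.21 (adjusted p = 0.103), and Tfam, which packs mitochondrial DNA, 0.03 (adjusted p = 0.82).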

How the data were processed

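RNA from whole gonads was sequenced in 6 libraries. The authors deposited 1 table of signal values, upper-quartile normalised pseudo-counts per gene, with coordinates on mm9 (per the file headers and the labels). CASAVA 1.8.2 and edgeR 2.6.2 are named per the submitters' processing notes. The sources used here do not give the aligner, the annotation, the depth or each tool's role, so no count model or counting interval was used, and precision rests on the spread between libraries. Values were taken as log2(value + 1), which understates changes of low genes. Genes had to reach 10 in 3 or more libraries, which 15116 of 16862 did, and were tested in limma 3.58.1 (R 4.3.3) with a mean-dependent prior, two-sided, at a Benjamini-Hochberg adjusted p under 0.05 over those genes. The fit was tested on simulated data. Libraries were grouped by the genotype in their labels.

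Length and GC content came from GENCODE vM21 transcripts on GRCm38, matched by NCBI gene identifier for 14449 genes tested. Their trend was fitted in each library by natural splines (4 degrees of freedom for each term) and subtracted. Copies were found with blastn 2.17.0, and figures drawn with matplotlib 3.10.9 in Python 3.11.15. Named genes were the defining subunits, the paired forms, up to 3 of the largest called changes per complex with libraries fully apart, calls against the direction of their complex, calls after trend removal and genes below the filter. Other genes were named, after their values were seen, to complete a count. A gene of complex I is counted in the totals and not reported here. The members and lists were chosen with earlier results of these data known. Alternatives were other pseudocounts, filters, scalings and priors, trend removal and leaving out each library. Trend removal with the median transcript length was added after seeing the data.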

Additional observations from a re-analysis of the deposited data

How the results depend on the processing

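Other pseudocounts, filters and scaling by the median of ratios left 54 to 61 genes lower and 1 higher, against 14.7% to 20.7% and 15.2% to 20.3% of all genes. After scaling to equal totals, when 11.2% of all genes fell, complex III had 3 genes lower and Sdha turned to 0.066. After quantile normalisation Sdha turned to 0.15 and Atp5b to 0.028. With no mean-dependent prior, when 12.9% of all genes fell and 14.1% rose, 0 genes rose and complex III had 2 lower. With the length and GC trend removed by the longest transcript, 7 genes fell and 0 rose, against 6.64% and 6.07% of all genes. Of the 7, 4 were in complex I, 1 in complex II, 0 in complex III, 0 in complex IV and 1 in complex V. The median was -0.071. Among the named genes the sign then turned for Sdhd (0.018), Uqcrfs1 (0.0495), Uqcr11 (0.051), Cox5a (0.12), Cox4i2 (0.026), Cox6a1 (0.11), Cox6b2 (0.11), Cox7a1 (0.13), Cox8a (0.17) and Atp5g2 (0.41), all on the log2 scale. Removal without wild-type library 1 gave the same counts, 7 lower and 0 higher, against 6.10% and 5.83% of all genes. By complex, I to V, 4, 1, 0, 0 and 1 fell, and the median was -0.084. The sign turned for Ndufv1 (0.047), Uqcrfs1 (0.012), Uqcr11 (0.021), Cox5a (0.035), Cox4i2 (0.057), Cox6a1 (0.075), Cox6a2 (0.44), Cox6b2 (0.085), Cox8a (0.13) and Atp5g2 (0.38). With the median transcript length 26 genes fell, against 9.16% of all genes. Of the 26, 13 were in complex I, 1 in complex II, 3 in complex III, 1 in complex IV and 7 in complex V. The median was then -0.26, and the sign turned for Atp5g2 (0.12). Of the 58 genes called lower as deposited, 6 were called after removal with the longest transcript and 23 with the median length. Beyond the length and GC terms themselves, the cause was not tested.

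With each library left out in turn, 38 to 70 genes fell and 0 to 1 rose, against 9.24% to 16.8% and 10.8% to 16.5% of all genes. The genes lower numbered 17 to 33 in complex I, 2 to 3 in complex II, 2 to 6 in complex III, 5 to 12 in complex IV and 8 to 11 in complex V. The median ranged from -0.58 to -0.41. Of the 59 genes called, 38 kept their call in all 6 of these fits. No paired analysis was possible because the genotypes share no replicate number in the labels. Depth is unknown, so what it limits cannot be given, and the low genes Cox6a2, Cox7b2 and Cox8c had the widest standard errors.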
